A study of Homo sapiens with 12 samples.

Results

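The comparison described here is that of HL-60 cells treated with ML-792 and daunorubicin together (ML-792+DNR) against HL-60 cells treated with daunorubicin alone (DNR), and it asks what blocking SUMOylation changes in the early transcriptional response to the drug. Its members were chosen by label, as the 3 libraries of each of these groups, 6 of the 12 libraries of the series. HL-60 is an established human promyelocytic cell line from acute myeloid leukemia (AML) that lacks p53. ML-792+DNR cells received 0.5 µM ML-792 and 1 µM DNR, DNR cells 1 µM DNR, ML-792 cells 0.5 µM ML-792, and DMSO cells the vehicle, in each case for 3 h. The replicates were independent experiments per the study's methods, all on 1 cell line, and polyadenylated RNA was sequenced from each.

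DNR, an anthracycline and a mainstay of AML treatment, slips between DNA base pairs and blocks topoisomerase II on its cut DNA. SUMO is a small protein that is joined to other proteins by an activating enzyme, a conjugating enzyme and ligases, and many of its targets are transcription factors and other chromatin proteins. ML-792 inhibits the SUMO-activating enzyme, so that SUMO is lost from proteins as proteases remove it. NF-kB, which comes up throughout, is a family of dimeric transcription factors held back by IkB proteins and released by inflammatory signals and by DNA damage, and its targets include its own subunits and inhibitors.

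The 12 libraries held 28647951 to 46451654 reads in genes, and no library was a copy of another. The myeloid markers were abundant, with a summed level of 11000 to 12100 CPM (counts per 1000000 reads in genes) in ML-792+DNR and 10500 to 11000 CPM in DNR libraries, nearly all of it from MPO, myeloperoxidase. The markers chosen for other lineages were scarce. The 5 lymphocyte markers summed to 0.294 to 0.827 CPM in ML-792+DNR and 0.519 to 0.592 CPM in DNR, with CD3E and MS4A1 at 0 in all 12 libraries. NKG7, from a longer lymphocyte list, was more abundant, at 9.28 to 12.7 CPM in ML-792+DNR and 8.27 to 10.7 CPM in DNR. The 4 erythroid markers reached at most 0.0689 CPM and 0.0312 CPM, with HBB and HBA1 at 0. KLF1, from a longer erythroid list, had 0.983 to 1.275 CPM in ML-792+DNR and 0.686 to 1.21 CPM in DNR. The 5 epithelial and stromal markers, with EPCAM and COL1A2 at 0, summed to 1.96 to 3.07 CPM and 2.05 to 2.98 CPM. Replicate 1 stood apart in mitochondrially encoded transcripts, which took 6.37% of reads in ML-792+DNR and 6.27% in DNR, against 2.49% to 3.48% in the other 4 libraries of the comparison. Values are shares of each library's RNA, so fewer cells that express a gene and less RNA per cell cannot be told apart.

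With the replicate number as a block, edgeR's quasi-likelihood test on the raw counts called 226 genes higher in ML-792+DNR than in DNR (1.65% of 13696 tested) and 314 genes lower (2.29%) at a Benjamini-Hochberg adjusted p below 0.05. Of these, 24 genes were at least 2-fold higher (0.175% of those tested) and 28 at least 2-fold lower (0.204%). An unadjusted p below 0.05 was found for 2903 genes, and the same test on the 6 libraries of the comparison alone called 1719 genes higher and 1670 lower, so the number of changed genes depends on the fit. By fold change the largest falls were those of CCL4, GCNT4, CXCL10, EGR2, TNFAIP6 and LOC100128233, and the largest rises those of the microRNA host MIR17HG, GAS1, SPRY4, a brake on receptor tyrosine kinase signalling, and MYC. The 28 lower genes also held ICAM1, BCL3, CXCL8 and NFKB2. All 52 genes moved the same way in 3 of 3 replicate pairs, which their choice by a blocked test on these pairs favours. The ML-792+DNR and DNR libraries did not overlap for 22 of the 24 higher genes (the exceptions were SIK1 and HES1) and for 25 of the 28 lower ones (the exceptions were CXCL11, TNF and LOC100130476). Of all tested genes, 8.89% were higher and 9.86% lower without overlap, and the 52 genes had been chosen by the same values. Of the 91 named genes that were called, 39 kept an adjusted p below 0.05 with any 1 of the 6 libraries left out. The counts depended on the libraries used. With any 1 of the 6 libraries left out, 16 to 23 genes were called at least 2-fold higher and 14 to 20 lower, without replicate 2 in any group 7 and 5, without replicate 3 in any group 4 and 1, and without replicate 1 in any group 29 and 17.

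**Figure D1:**
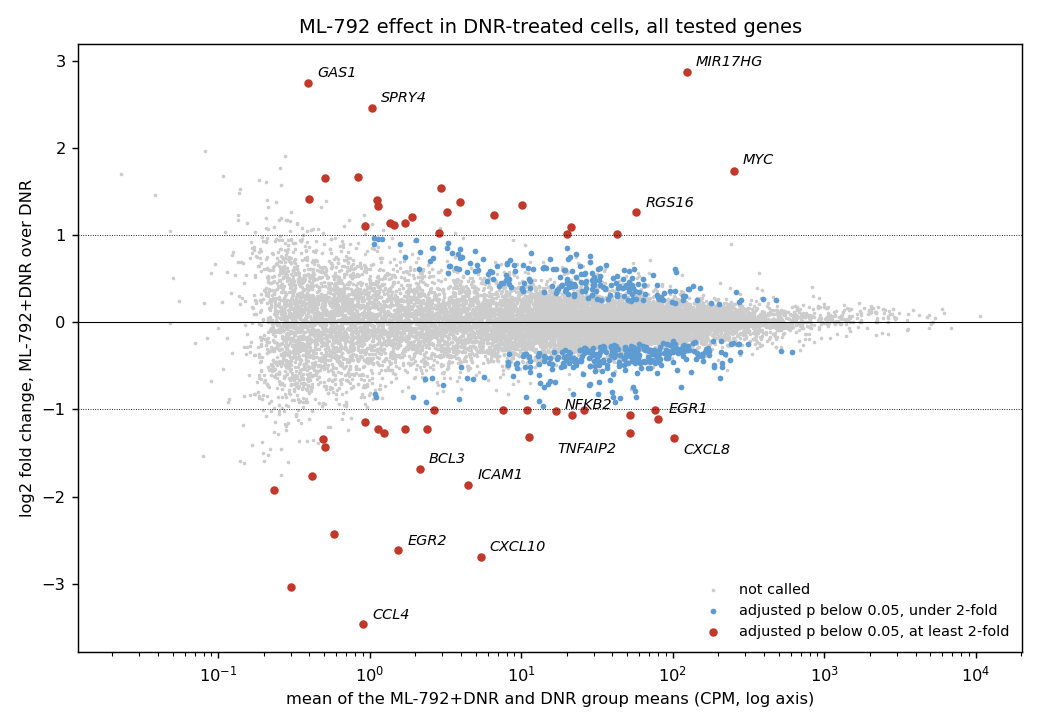
Each point is 1 of 13696 tested genes, placed by the mean of its ML-792+DNR and DNR group means (CPM, log axis) and its log2 fold change of ML-792+DNR over DNR; dotted lines mark 2-fold. The 24 higher and 28 lower genes called at least 2-fold are red, the other genes at adjusted p below 0.05 are blue, and 9 of the 52 red genes lie under 1 CPM in both groups.

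Among the NF-kB subunits and IkB proteins, 6 of 11 tested genes were lower in ML-792+DNR and none was higher, with a median log2 fold change of −0.49 against 0.0011 over all tested genes. NFKB2 encodes the p100 precursor of the non-canonical subunit p52 (GRCh37 chr10:104153867-104162281, plus strand). It was at 35.4, 26.7 and 40.0 CPM in ML-792+DNR and at 70.5, 63.7 and 77.3 CPM in DNR replicates 1, 2 and 3. All 3 ML-792+DNR libraries lay well below all 3 DNR libraries, 2.09-fold lower on average (log2 −1.06 ± 0.12 SE, edgeR adjusted p = 0.00166), and no library without DNR was above 5.77 CPM. Without ML-792+DNR replicate 2 the fold change was −0.92 on the log2 scale, under 2-fold. REL, the c-Rel subunit, was at 22, 32.1 and 32.2 CPM in ML-792+DNR and at 47.6, 53.7 and 54.3 CPM in DNR (log2 −0.85 ± 0.12 SE, edgeR adjusted p = 0.0044). RELB, the partner of p52, was at 16.8, 12.7 and 18.4 CPM and at 27.1, 27.2 and 30.0 CPM (log2 −0.82 ± 0.14 SE, edgeR adjusted p = 0.00724), again without overlap between the groups.

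BCL3, a nuclear IkB protein that acts as a coactivator of p50 and p52 dimers, fell further. It had 0.752, 0.791 and 1.58 CPM in ML-792+DNR and 2.19, 4.00 and 3.56 CPM in DNR, a log2 fold change of −1.68 ± 0.25 SE (edgeR adjusted p = 0.00517). All its DNR libraries were above all its ML-792+DNR libraries, and its 3 DMSO libraries together held 1 read. The IkB genes NFKBID (log2 −0.60) and NFKBIE (−0.49) were also called lower. The canonical subunit gene RELA was not called, at 40.3 CPM in ML-792+DNR and 41.1 CPM in DNR (log2 −0.03 ± 0.06 SE). NFKB1, which encodes the p105 precursor of p50, was at 71.8 and 84.8 CPM (log2 −0.24 ± 0.07 SE, edgeR adjusted p = 0.0719), and NFKBIA, the gene of IkBα, at 129 and 159 CPM (log2 −0.30 ± 0.13 SE, edgeR adjusted p = 0.206), so neither passed the test. Between 5 and 6 members of the list were called lower when any 1 library was left out.

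Of 14 tested feedback regulators of the pathway, 7 were lower in ML-792+DNR and 1 was higher, with a median log2 fold change of −0.34. TNFAIP2, a TNF-inducible gene, had 23.4, 22.5 and 47.5 CPM in ML-792+DNR and 62.5, 62.2 and 93.7 CPM in DNR. Replicate 3 was the highest in both groups, and within each replicate ML-792+DNR was lower (log2 −1.27 ± 0.11 SE, edgeR adjusted p = 0.000603). BIRC3 encodes cIAP2, a ubiquitin ligase that restrains caspase-8 and the non-canonical pathway, and it had 4.74, 8.10 and 8.95 CPM in ML-792+DNR and 11, 15.2 and 17.4 CPM in DNR (log2 −1.01 ± 0.15 SE, edgeR adjusted p = 0.00511). Its fold change was under 2-fold without ML-792+DNR replicate 1 (log2 −0.84), DNR replicate 2 (−0.97) or DNR replicate 3 (−0.99). The deubiquitinase genes CYLD and TNFAIP3, both brakes on NF-kB, fell by 0.86 and 0.78 on the log2 scale. TRAF1, an adaptor of TNF receptors, was lower too (log2 −1.22 ± 0.21 SE, edgeR adjusted p = 0.00958), but its adjusted p was 0.0535 without ML-792+DNR replicate 3, and 0.052 and 0.0505 when DNR replicate 2 or 3 was left out. The smaller falls were those of TRAF3 (log2 −0.36) and TRAF2 (−0.32). The exception was TNFAIP8, a regulator of cell death, which was higher (log2 0.43 ± 0.06 SE, edgeR adjusted p = 0.00511). Leaving out any 1 library gave 4 to 6 lower calls among these genes.

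Of 22 tested NF-kB effector targets, 9 were lower and none higher, with a median log2 fold change of −0.44. ICAM1, the adhesion molecule that binds leukocyte integrins, had 2.00, 0.935 and 2.93 CPM in ML-792+DNR and 6.51, 4.06 and 10.4 CPM in DNR. It was 3.64-fold lower in ML-792+DNR (log2 −1.86 ± 0.19 SE, edgeR adjusted p = 0.00111), and the 2 groups did not overlap. TNF, the inflammatory cytokine itself, had 3.24, 9.04 and 6.82 CPM in ML-792+DNR and 7.98, 23.9 and 16.6 CPM in DNR. Each ML-792+DNR value was well under its own pair's DNR value, but replicate 1 was low in both groups, so that the groups overlapped (log2 −1.32 ± 0.31 SE, edgeR adjusted p = 0.0356). That call rested on the full set of libraries, since the adjusted p was 0.0575 to 0.195 when any 1 of the 6 was left out other than DNR replicate 1. The other members called lower, beside CXCL8 and CXCL10, were STX11, a syntaxin of secretory granules (log2 −1.0), SDC4, a heparan sulphate proteoglycan (−1.0), the protease gene PLAU (−0.91), the polyamine enzyme gene SAT1 (−0.74) and CFLAR, the inhibitor of caspase-8 (−0.38). Among the 13 members without a call were SOD2 (log2 −0.10) and BCL2L1 (−0.02). The list gave 4 to 7 lower calls when any 1 library was left out. In a separate list of 16 tested cytokines and TNF family ligands, TNF alone was called. There 7 fold changes were positive and 9 negative, with a median log2 of −0.06.

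Chemokines, the secreted attractants of leukocytes, showed the lowest median of the lists, −0.92 on the log2 scale. Of 21 counted, 10 were tested, all 10 had negative fold changes and 6 were called lower. The count filter keeps a gene that is high in only 1 group, such as DNR, so the signs of the tested members are not an unselected result. With no count filter 17 were tested, 7 were called lower and none higher, and the median log2 fold change was −0.52. CXCL8, the neutrophil attractant IL-8, had 35.4, 72.9 and 67.5 CPM in ML-792+DNR and 98.7, 168 and 171 CPM in DNR. Its highest ML-792+DNR library was under its lowest DNR library, and the gene was 2.51-fold lower (log2 −1.33 ± 0.21 SE, edgeR adjusted p = 0.00593). CXCL10, which attracts activated T cells and is a target of both NF-kB and interferon, had 0.785, 2.06 and 1.48 CPM in ML-792+DNR and 7.24, 9.59 and 11.2 CPM in DNR. These levels were 6.46-fold lower in ML-792+DNR (log2 −2.69 ± 0.31 SE, edgeR adjusted p = 0.00166), though DESeq2 gave this gene an adjusted p of 0.209. CXCL3, another neutrophil attractant, had 16.1, 10.0 and 16.4 CPM in ML-792+DNR and 29.1, 26.9 and 31.6 CPM in DNR (log2 −1.07 ± 0.13 SE, edgeR adjusted p = 0.00217). Without ML-792+DNR replicate 2 its log2 fold change was −0.87. Leaving out any 1 library gave 5 lower calls among chemokines.

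CCL4 had the largest fall of all called genes, with 0.0327, 0.12 and 0.31 CPM in ML-792+DNR and 1.18, 1.55 and 2.25 CPM in DNR. These are 15 and 163 reads over the 3 libraries of each group (log2 −3.47 ± 0.38 SE, edgeR adjusted p = 0.00249), and the gene shares sequence with near-identical copies, so its level is uncertain. CCL5, which attracts T cells and monocytes, was at 38.3 to 42.9 CPM in ML-792+DNR and 66.0 to 69.6 CPM in DNR, without overlap (log2 −0.74 ± 0.10 SE, edgeR adjusted p = 0.00361). CXCL2 missed the threshold narrowly (log2 −0.76 ± 0.19 SE, edgeR adjusted p = 0.0524). CXCL11 was called (log2 −1.43 ± 0.35 SE, edgeR adjusted p = 0.0438) but had only 27 and 72 summed reads in ML-792+DNR and DNR, and its adjusted p was 0.0957 to 0.155 with any 1 library left out. CCL20 (log2 −0.02) and CCL22 (−0.25) were not called.

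**Figure D2:**
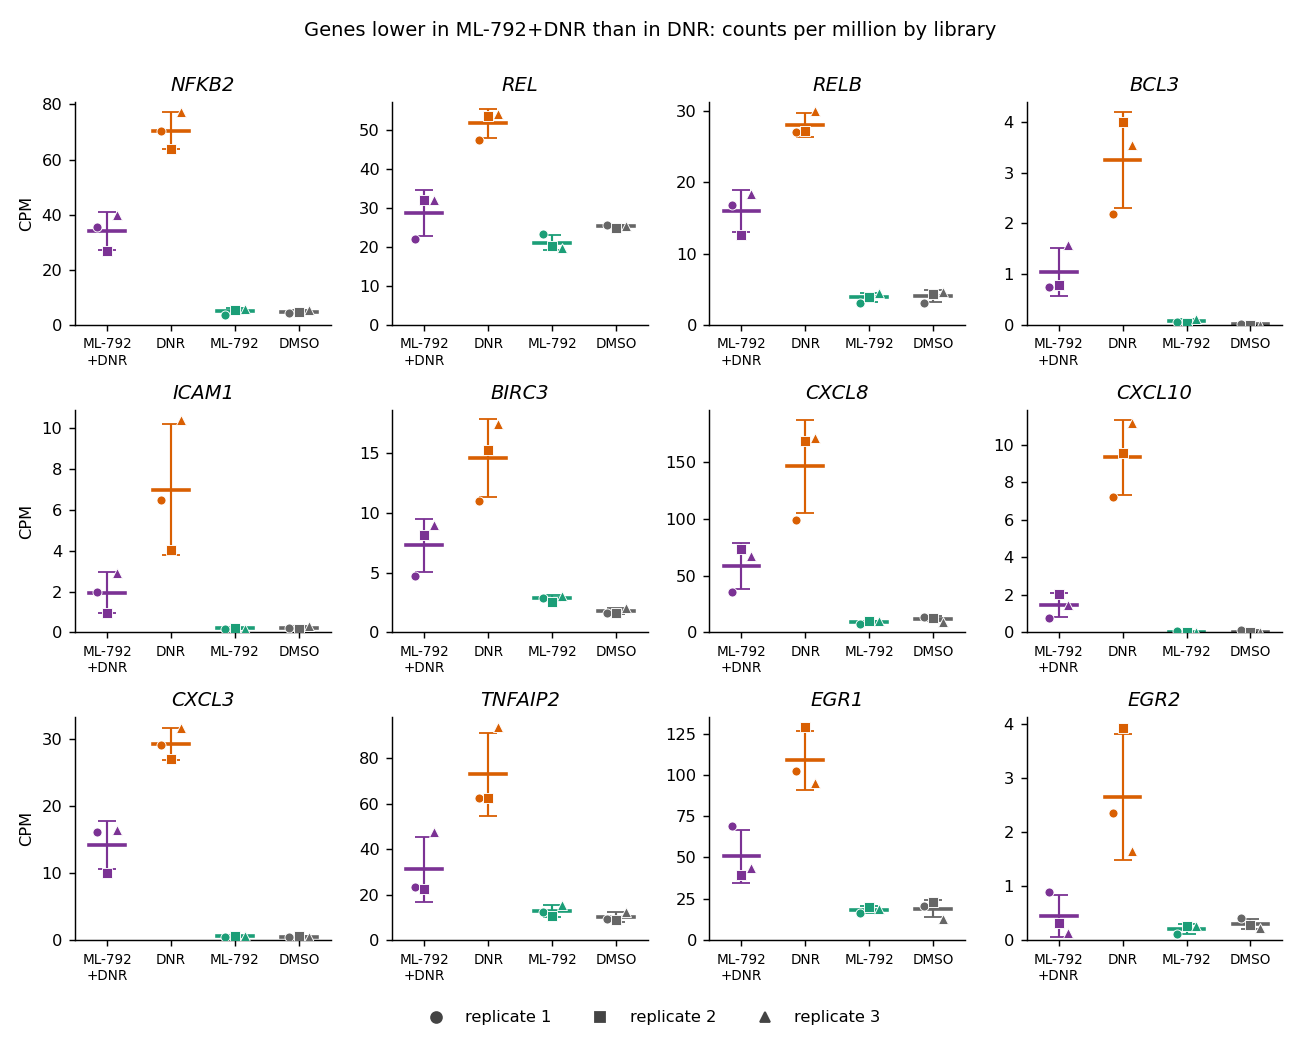
CPM (linear axes from 0) of 12 genes called lower, with each of the 3 replicates as a symbol, the group mean as a line and the SD as a bar, for ML-792+DNR, DNR, ML-792 and DMSO from left to right. In every panel all 3 ML-792+DNR libraries sit below all 3 DNR libraries, as for NFKB2 at 26.7 to 40.0 CPM against 63.7 to 77.3 CPM.

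The promoters of these genes were searched for letters that NF-kB is known to bind. In RefSeq windows of 300 bases on GRCh38.p14, from 250 bases before to 50 after the start site, the NF-kB consensus on either strand was present in 6 of 21 promoters of genes called at least 2-fold lower (28.6%), in 2 of 19 of those called at least 2-fold higher (10.5%), in 6.29% of 10205 tested genes with a window and in 5.91% of all 35116 windows. Over all called genes the shares were 15% of 267 lower and 5.11% of 176 higher genes. The 6 lower genes were BCL3, BIRC3, CXCL10, CXCL11, CXCL3 and SDC4. A match describes the letters only and is no evidence of binding. The stretches just upstream of the start sites of 3 of them and of REL are shown because they hold the matches, written 5′ to 3′ on the gene's strand up to the base before the start site, with the matches in capitals.
CXCL10 (chr4:76023498-76023697, minus strand): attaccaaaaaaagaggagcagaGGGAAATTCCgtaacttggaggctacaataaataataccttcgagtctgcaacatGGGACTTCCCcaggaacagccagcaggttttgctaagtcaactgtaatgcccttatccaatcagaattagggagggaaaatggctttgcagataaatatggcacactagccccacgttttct
BIRC3 (chr11:102317264-102317483, plus strand): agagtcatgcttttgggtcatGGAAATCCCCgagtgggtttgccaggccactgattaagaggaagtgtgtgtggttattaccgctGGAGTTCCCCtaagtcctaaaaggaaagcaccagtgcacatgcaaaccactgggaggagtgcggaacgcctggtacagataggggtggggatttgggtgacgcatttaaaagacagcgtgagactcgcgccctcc
CXCL3 (chr4:74038690-74038809, minus strand): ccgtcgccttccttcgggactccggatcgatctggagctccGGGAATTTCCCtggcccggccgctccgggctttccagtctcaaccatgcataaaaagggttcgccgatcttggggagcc
REL (chr2:60881474-60881573, plus strand): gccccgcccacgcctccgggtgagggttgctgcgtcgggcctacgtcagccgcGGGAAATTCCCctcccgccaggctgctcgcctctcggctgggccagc
In CXCL10 the 2 matches began 177 and 122 bases before the start site and in BIRC3 199 and 135 bases before it. The single runs of capitals in CXCL3 and REL are pairs of overlapping matches, offset by 1 base. The windows of CXCL8, ICAM1, NFKB2 and TNFAIP2, whose falls were described above, held no match to this consensus. The search took exact matches only, so sites that depart from the consensus were missed. The lack of a match does not show that a promoter has no NF-kB site.

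Lists of other immediate early genes, which are transcribed within minutes of a stimulus without new protein, and of related factors held calls both ways. The list of EGR, NR4A and KLF factors, which also holds HES1, had 21 tested genes. Of these 3 were lower (0 to 3 with any 1 library left out) and 2 higher, KLF16 and HES1 (0 to 1), and the median log2 fold change was 0.05. EGR1, a zinc finger factor induced by growth factors and stress through serum response elements, had 69.1, 39.6 and 43.6 CPM in ML-792+DNR and 102, 129 and 95.2 CPM in DNR. The groups did not overlap, and EGR1 was 2.15-fold lower (log2 −1.11 ± 0.20 SE, edgeR adjusted p = 0.0119), but the adjusted p was 0.0668 without ML-792+DNR replicate 3, and 0.066 and 0.0761 when DNR replicate 2 or 3 was left out, and its log2 fold change was −0.85 without ML-792+DNR replicate 2. EGR2, its relative, had 0.883, 0.312 and 0.138 CPM in ML-792+DNR and 2.36, 3.94 and 1.65 CPM in DNR (log2 −2.62 ± 0.42 SE, edgeR adjusted p = 0.00661), and without DNR replicate 2 its adjusted p was 0.0548. EGR3 (log2 −0.06 ± 0.15 SE), NR4A1 (0.05) and SRF, the factor that binds serum response elements (−0.02), were not called. The CArG box, the core of the serum response element, was found in 3 of 21 windows of genes called at least 2-fold lower (14.3%; CXCL11, EGR1 and FILIP1L), in none of 19 higher ones, in 1.05% of those of tested genes and in 1.29% of all windows. EGR1's own upstream stretch is shown for its 2 CArG boxes, in capitals, 105 and 83 bases before the start site.
EGR1 (chr5:138465349-138465478, plus strand): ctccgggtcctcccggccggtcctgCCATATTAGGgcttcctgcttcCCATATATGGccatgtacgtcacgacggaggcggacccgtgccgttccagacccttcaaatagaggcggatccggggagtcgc

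The AP-1 family, dimers of FOS, JUN and ATF proteins, gave 1 lower call, ATF3, and 1 higher call, BATF3, among 13 tested genes, against 0 to 1 lower and none higher with any 1 library left out. The adjusted p of BATF3 (log2 0.39, edgeR adjusted p = 0.0361) was then 0.0658 to 0.142. ATF3 had 31.7, 15.7 and 23.9 CPM in ML-792+DNR and 44.3, 38.1 and 39.2 CPM in DNR (log2 −0.82 ± 0.15 SE, edgeR adjusted p = 0.0119), and its adjusted p was 0.0557 without ML-792+DNR replicate 2, 0.0692 without ML-792+DNR replicate 3 and 0.071 without DNR replicate 2. FOSB, which the study singled out, was at 47.8, 20.0 and 30.8 CPM in ML-792+DNR and 63.8, 40.1 and 41.0 CPM in DNR. Each replicate was lower with ML-792 but the groups overlapped, and the change was not called (log2 −0.59 ± 0.18 SE, edgeR adjusted p = 0.0826). FOS (log2 −0.54), JUN (−0.34) and JUNB (−0.08) were not called either. The AP-1 element TGANTCA, whose 2 strands read alike, stood in 19% of the windows of the 2-fold lower genes (4 of 21), 10.5% of those of the higher genes, 4.36% of those of tested genes and 7.71% of all windows. Over all called genes its share was 5.62% of 267 lower and 4.55% of 176 higher genes, near that of tested genes. The cyclic AMP response element TGACGTCA stood in none of the 2-fold lower or higher genes, 3.24% of tested genes and 1.85% of all windows. The EGR element GCGNGGGCG stood in 23.8%, 10.5%, 15% and 9.43% of the windows of 2-fold lower, 2-fold higher, tested and all genes, and in 15.4% of those of all lower genes. The E-box CACGTG stood in 4.76%, 15.8%, 10.6% and 7.26% of the windows in the same order, with both strands searched and overlaps with other motifs not removed. In the same order the CTCF consensus stood in 4.76%, 5.26%, 2.53% and 1.64%. Over all lower and all higher genes the shares were 11.2% and 17% for the E-box and 4.49% and 2.84% for the CTCF consensus. Those of the cyclic AMP response element were 4.12% and 1.14%.

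Of 31 tested genes of the integrated stress and unfolded protein response, 6 were lower (3 to 4 with any 1 library left out) and 3 higher (1 to 3), with a median log2 fold change of 0.10. PPP1R15A encodes GADD34, the phosphatase subunit that reverses eIF2α phosphorylation, and had 33.2, 20.1 and 33.6 CPM in ML-792+DNR and 56.3, 46.1 and 58.5 CPM in DNR (log2 −0.91 ± 0.12 SE, edgeR adjusted p = 0.00266). DDIT3, the gene of the factor CHOP, had 30.9, 24.4 and 32.2 CPM in ML-792+DNR and 50.6, 47.2 and 53.3 CPM in DNR (log2 −0.80 ± 0.10 SE, edgeR adjusted p = 0.00285). Neither gene overlapped between groups, and both stayed called with any 1 library left out. ATF4, the central factor of the response, had no call (log2 0.00), nor had ASNS, asparagine synthetase (0.10), while the pseudokinase genes TRIB3 (log2 0.66) and TRIB1 (0.62) were higher. BTG2, an antiproliferative gene, had 8.60, 8.68 and 11.2 CPM in ML-792+DNR and 16.9, 19.6 and 18.5 CPM in DNR (log2 −0.96 ± 0.14 SE, edgeR adjusted p = 0.00528), just short of 2-fold. PMAIP1, the gene of the BH3-only protein NOXA, had 145 to 168 CPM in ML-792+DNR and 210 to 230 CPM in DNR (log2 −0.49 ± 0.05 SE, edgeR adjusted p = 0.00148).

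MIR17HG rose the most among all called genes. It is the host transcript of the miR-17-92 cluster, microRNAs known to promote proliferation and survival in blood cancers (GRCh37 chr13:91999940-92049846, plus strand, a long noncoding RNA). It had 179, 221 and 256 CPM in ML-792+DNR and 25.5, 33.2 and 30.0 CPM in DNR replicates 1, 2 and 3. All ML-792+DNR libraries lay far above all DNR libraries, and the host was 7.36-fold higher on average (log2 2.88 ± 0.19 SE, edgeR adjusted p = 6.63e-05). The sequencing captured polyadenylated RNA, so the mature microRNAs were not measured. Their RefSeq sequences within the host's bounds are given because they are what the transcript carries, with the seed (bases 2 to 8) in capitals and, among the main arms, those that share a seed next to each other.
hsa-miR-17-5p: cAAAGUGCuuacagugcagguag
hsa-miR-20a-5p: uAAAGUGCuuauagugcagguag
hsa-miR-18a-5p: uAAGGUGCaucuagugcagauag
hsa-miR-19a-3p: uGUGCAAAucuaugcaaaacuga
hsa-miR-19b-3p: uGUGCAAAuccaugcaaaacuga
hsa-miR-92a-3p: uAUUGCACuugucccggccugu
The seed was identical in miR-17-5p and miR-20a-5p and in miR-19a-3p and miR-19b-3p, and miR-18a-5p and miR-92a-3p had a seed of their own.

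The hosts MIR503HG and MIR99AHG were at least 2-fold higher as well. MIR503HG had 17.2, 9.78 and 16.8 CPM in ML-792+DNR and 6.02, 5.03 and 5.71 CPM in DNR (log2 1.35 ± 0.14 SE, edgeR adjusted p = 0.00126). MIR99AHG had 1.60, 1.25 and 1.96 CPM and 0.519, 0.434 and 0.998 CPM (log2 1.34 ± 0.26 SE, edgeR adjusted p = 0.0165), a call lost with any 1 of the 6 libraries left out (adjusted p 0.0508 to 0.0708). Neither host overlapped between the groups. Inside the bounds of MIR503HG lies miR-503 and inside those of MIR99AHG lie miR-99a, let-7c and miR-125b-2, whose main arms follow with the seed in capitals; they share no seed with the miR-17-92 cluster or each other.
hsa-miR-503-5p: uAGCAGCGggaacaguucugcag
hsa-miR-99a-5p: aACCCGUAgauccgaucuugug
hsa-let-7c-5p: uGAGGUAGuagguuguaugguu
hsa-miR-125b-5p: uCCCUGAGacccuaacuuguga
Among the 19 tested microRNA and small nucleolar RNA hosts of the list, 2 were higher (MIR17HG and C1orf132) and none lower, and 1 was called higher with any 1 library left out. MIR155HG, the host of the inflammatory miR-155, had a log2 fold change of 0.48 without a call.

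MYC, the oncogenic factor that drives growth and ribosome production, had the smallest adjusted p of the 2-fold calls after MIR17HG. It had 251, 584 and 344 CPM in ML-792+DNR and 81.5, 146 and 118 CPM in DNR, with replicate 2 the highest in both groups and no overlap between them. MYC was 3.33-fold higher (log2 1.74 ± 0.12 SE, edgeR adjusted p = 8.48e-05), while DMSO libraries had 520 to 725 CPM. Its partner MAX was not called (log2 0.03), and MXD1, which competes with MYC for MAX, fell by 0.52 on the log2 scale (edgeR adjusted p = 0.0141), a call lost without any of the 3 DNR libraries (adjusted p 0.0556, 0.0624 and 0.0822 without replicates 1, 2 and 3). Of 29 tested ribosome biogenesis genes, many of them known MYC targets, 3 were higher (1 to 2 with any 1 library left out) and none lower, with a median log2 fold change of 0.05. NOP16, a nucleolar protein, had 131, 168 and 136 CPM in ML-792+DNR and 99.5, 129 and 106 CPM in DNR, and each library exceeded its pair (log2 0.38 ± 0.05 SE, edgeR adjusted p = 0.00334). Nucleolin (NCL, log2 −0.08), fibrillarin (FBL, −0.04) and nucleophosmin (NPM1, 0.02) showed no call.

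SPRY4 had 1.31, 2.40 and 1.58 CPM in ML-792+DNR and 0.231, 0.341 and 0.374 CPM in DNR, 5.52-fold higher with no overlap (log2 2.46 ± 0.26 SE, edgeR adjusted p = 0.00126). RGS16, which speeds up GTP hydrolysis on G proteins, had 66.8, 97.0 and 79.9 CPM in ML-792+DNR and 33.6, 37.0 and 29.8 CPM in DNR (log2 1.27 ± 0.10 SE, edgeR adjusted p = 0.000114). NOG, the antagonist of bone morphogenetic proteins, had 4.19, 4.70 and 4.34 CPM in ML-792+DNR and 1.5, 1.52 and 1.53 CPM in DNR (log2 1.54 ± 0.18 SE, edgeR adjusted p = 0.0016). The groups of NOG were far apart beside their SD of 0.263 CPM in ML-792+DNR and 0.015 CPM in DNR. Of 14 tested feedback genes of the MAP kinase pathway, 3 were higher (SPRY4, SPRY2 and DUSP7) and 2 lower (DUSP10 and SPRED2), against 1 to 3 and 1 with any 1 library left out. SPRY2 rose by 0.40 on the log2 scale (edgeR adjusted p = 0.0114), and SPRED2 fell by 0.42 (edgeR adjusted p = 0.00509), while DUSP6 (log2 −0.17) and DUSP1 (−0.18) had no call.

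SIK1, a salt-inducible kinase, was higher in each pair although the groups overlapped. It had 3.11, 9.45 and 4.65 CPM in ML-792+DNR and 1.5, 3.26 and 1.72 CPM in DNR, so that replicate 2 was the highest in both groups (log2 1.38 ± 0.21 SE, edgeR adjusted p = 0.00528). GAS1, a growth arrest gene, was 6.73-fold higher at a very low level, from 67 summed reads in ML-792+DNR and 10 in DNR (log2 2.75 ± 0.33 SE, edgeR adjusted p = 0.002). LHX6, a homeobox gene, had 6.70, 14.3 and 6.89 CPM in ML-792+DNR and 2.88, 5.92 and 2.96 CPM in DNR (log2 1.24 ± 0.15 SE, edgeR adjusted p = 0.00217). SERPINB2, the inhibitor of urokinase, had 2.22 to 2.51 CPM in ML-792+DNR and 0.806 to 1.34 CPM in DNR (log2 1.15 ± 0.19 SE, edgeR adjusted p = 0.00766), and it stands beside PLAU, the urokinase gene, which was lower.

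Myeloid transcription factors were the list with the most higher calls. Of 22 tested, 6 were higher and 1, BCL6, was lower, with a median log2 fold change of 0.25. GATA2, a factor of haematopoietic stem and progenitor cells, had 20.1, 36.9 and 24.2 CPM in ML-792+DNR and 11.1, 16.2 and 12.3 CPM in DNR. It was 2.03-fold higher without overlap (log2 1.02 ± 0.11 SE, edgeR adjusted p = 0.00144), and DMSO libraries had 58.2 to 69.9 CPM. Its log2 fold change was 0.86 without ML-792+DNR replicate 2 and 0.98 without DNR replicate 3. CEBPA, which directs granulocyte development, had 71.7, 92.9 and 98.2 CPM in ML-792+DNR and 51.4, 58.7 and 71.1 CPM in DNR (log2 0.54 ± 0.07 SE, edgeR adjusted p = 0.00334). CEBPE, the factor of later granulocyte stages (log2 0.58), RUNX2 (0.53), RUNX1 (0.43) and GFI1 (0.39) were also higher, while SPI1, the gene of PU.1, was not called (0.23). With any 1 library left out, 4 to 5 of the list were called higher and none lower. None of 17 primary granule genes was called by edgeR (median log2 0.15, 15 positive), with log2 fold changes from −0.28 to 1.06. MPO was among those that changed little, at 10850 CPM in ML-792+DNR and 10320 CPM in DNR (log2 0.07). Of these 17, 7 had an unadjusted p below 0.05, and 8 were called higher in the fit of the 6 libraries alone and none by DESeq2. Further, 1 of 30 myeloid surface receptors was higher (CLEC5A, log2 0.65; 0 to 1 with any 1 library left out).

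**Figure D3:**
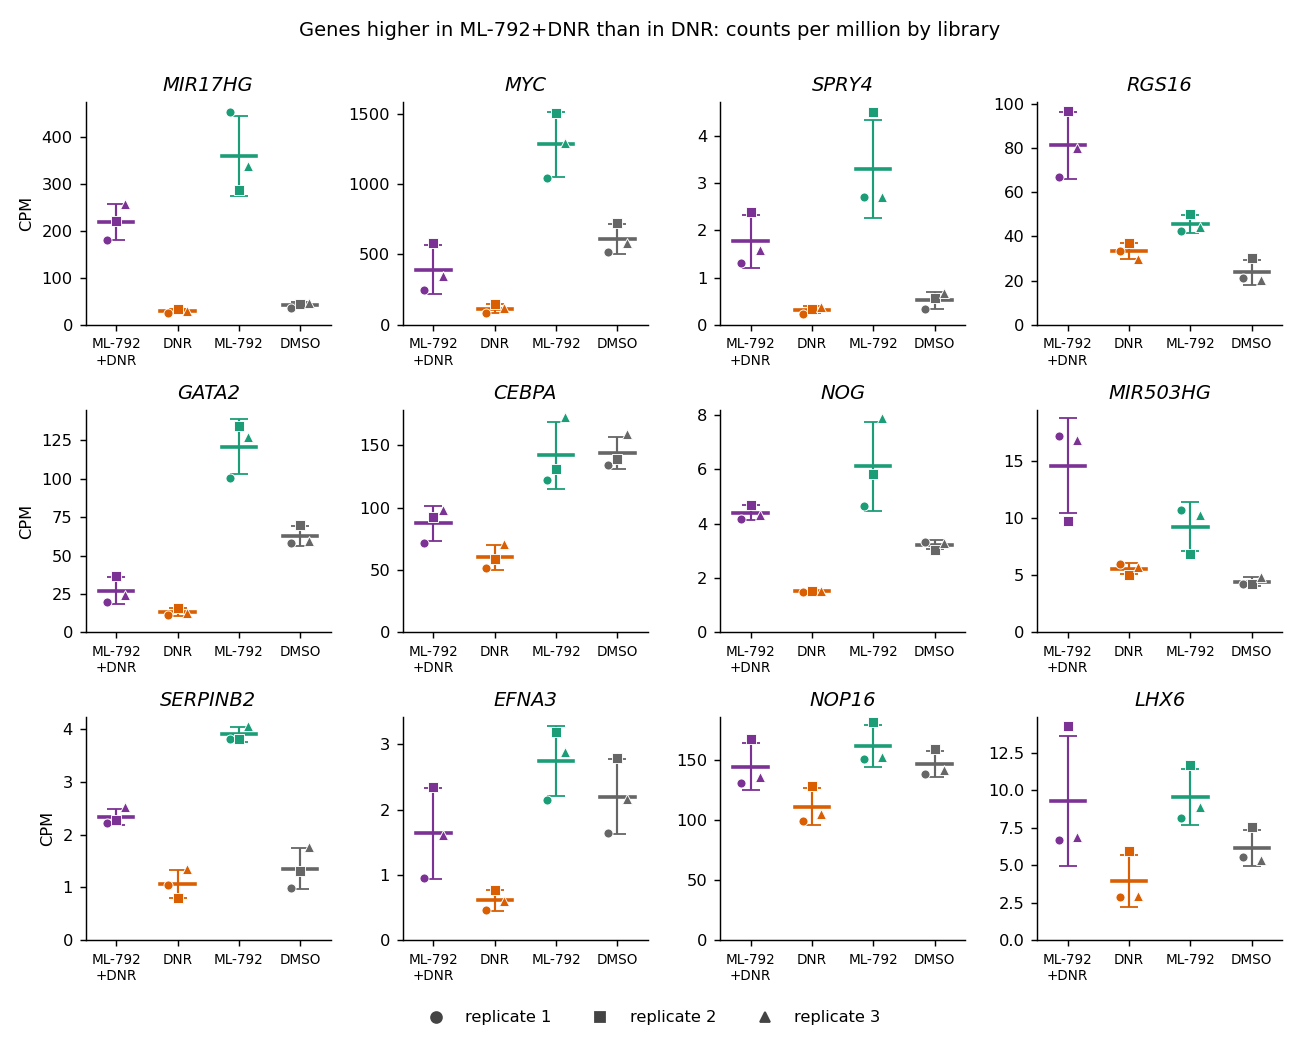
CPM (linear axes from 0) of 12 genes called higher, with each of the 3 replicates as a symbol, the group mean as a line and the SD as a bar, for ML-792+DNR, DNR, ML-792 and DMSO from left to right. In every panel all 3 ML-792+DNR libraries sit above the DNR library of the same number, as for MIR17HG at 179 to 256 CPM against 25.5 to 33.2 CPM.

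Regulators of transcription and chromatin moved by small amounts. Of 22 tested genes of transcription elongation, 7 were lower and none higher, with a median log2 fold change of −0.19. They were CCNT1 and CCNT2, cyclin partners of the elongation kinase CDK9, MEPCE, ELL2, SUPT6H, BRD2 and POLR2A, the largest subunit of RNA polymerase II, and all fell by 0.33 to 0.42 on the log2 scale. CCNT2 had 53.9, 41.5 and 51.6 CPM in ML-792+DNR and 74.7, 56.1 and 66.0 CPM in DNR (edgeR adjusted p = 0.0106), and its adjusted p was 0.05 without ML-792+DNR replicate 1 and 0.0596 without DNR replicate 3. Of 31 tested histone methylation enzymes, 6 were lower and none higher (median log2 −0.15). KDM6B, a histone demethylase that removes a repressive mark, had 9.71, 12.1 and 12.1 CPM in ML-792+DNR and 13.7, 23.4 and 18.9 CPM in DNR (log2 −0.70 ± 0.11 SE, edgeR adjusted p = 0.00613). With 1 library left out, 0 to 3 elongation genes and 1 to 5 methylation enzymes were called lower, so in this respect these counts are less firm than those of the NF-kB lists. Without the replicate block the 2 lists gave 0 and 1 lower calls. The NF-kB subunits, feedback regulators and effector targets then gave 5, 2 and 4, against 6, 7 and 9 with it. NFE2L2, the gene of the oxidative stress factor NRF2, was lower, at 65.8 to 70.3 CPM in ML-792+DNR and 88.2 to 99.9 CPM in DNR (log2 −0.46 ± 0.07 SE, edgeR adjusted p = 0.00511), and of 22 NRF2 targets and regulators tested only NFE2L2 itself and SLC7A11, the cystine transporter, were called (1 to 2 with any 1 library left out).

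Of 31 tested genes of the SUMO pathway and PML bodies, 2 were lower, SENP1, a SUMO protease (log2 −0.34 ± 0.07 SE, edgeR adjusted p = 0.0211), and RNF111, a SUMO-targeted ubiquitin ligase (log2 −0.27 ± 0.06 SE, edgeR adjusted p = 0.0393). With any 1 library left out, 0 to 1 of the list was called, and the adjusted p reached 0.103 for SENP1 without DNR replicate 3 and 0.159 for RNF111 without DNR replicate 2. The transcripts of the enzyme that ML-792 targets, SAE1 (log2 0.04) and UBA2 (0.01), and of SUMO2 (−0.04) and SUMO3 (0.13) had no call. Of 33 genes of CTCF, cohesin and chromatin silencing, EZH2 and MORC3 were lower (0 to 1 with any 1 library left out). CTCF itself had 77.6, 91.3 and 73.8 CPM in ML-792+DNR and 92.7, 104 and 99.8 CPM in DNR, and the groups did not overlap, but the change did not pass the test (log2 −0.29 ± 0.09 SE, edgeR adjusted p = 0.0932).

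Other programmes are given beside the 1.65% of tested genes called higher and 2.29% called lower. None of 42 DNA damage signalling and repair genes was called by edgeR (median log2 −0.04), although 8 had an unadjusted p below 0.05, DESeq2 called 2 lower, and the fit of the 6 libraries alone called 4 higher and 10 lower. Of 31 genes known as p53 targets, 1 was higher (AEN) and 3 lower (BTG2, PMAIP1 and SESN2), and CDKN1A, MDM2 and FAS were not called, in a cell line without p53. Of 41 interferon-stimulated genes 3 were lower, the RNA sensors DDX58 (log2 −0.57) and IFIH1 (−0.49) and the factor IRF2 (−0.47). IFIH1 had 30.4 to 30.8 CPM in ML-792+DNR and 41.8 to 43.5 CPM in DNR (edgeR adjusted p = 0.00528), without overlap. With any 1 library left out, 1 to 2 of these interferon-stimulated genes and 2 to 3 lower and 0 to 1 higher p53 targets were called. In the BCL2 family MCL1, an anti-apoptotic member, was lower beside PMAIP1 (log2 −0.33), and of 24 genes of the death receptor pathway CFLAR and XIAP were lower. In either of these lists 2 or fewer were called with any 1 library left out. Among 45 mitosis genes CCNB1 (log2 0.36) and CDC20 (0.39) were higher, and of 49 replication genes E2F3 and CHAF1A were lower. HSPH1 and FKBP4 were higher among 29 heat shock genes, and ANKRD37 and NDRG1 among 29 hypoxia and glycolysis genes. With any 1 library left out, 0 to 2 mitosis, 0 to 2 replication, 0 to 1 heat shock and 0 to 1 hypoxia genes were called in those directions. The 24 cholesterol synthesis genes, the 21 replication-dependent histones, the 9 replacement histones, the 9 SOCS and PIM genes and the 72 cytosolic ribosomal protein genes gave no call in edgeR, with 3, 2, 2, 1 and 11 of them at an unadjusted p below 0.05, and DESeq2 called 1 replacement histone higher. In the fit of the 6 libraries alone, 38 of the 72 ribosomal protein genes were called higher and none lower, and 71 had positive fold changes in the fit of all 12 libraries (median log2 0.12). The fit of the 6 libraries also called 5 cholesterol genes higher and 2 lower, 1 of 12 tested replication-dependent and 3 replacement histones higher, and 1 SOCS or PIM gene lower. Most replication-dependent histones were scarce in these libraries of polyadenylated RNA. Only 3 of them were tested when a mean of at least 1 CPM was required, so the absence of calls says little about them. Of 13 mitochondrially encoded transcripts ND6 alone was called (log2 −0.64, edgeR adjusted p = 0.00419), and as it is encoded on the strand opposite to the rest its value depends on whether strand was used in counting, and that setting is unknown here. IER3, an early response gene that the study singled out, was at 51.5 to 60.6 CPM in ML-792+DNR and 43.0 to 44.1 CPM in DNR without a call (log2 0.34 ± 0.18 SE, edgeR adjusted p = 0.312). Without DNR it was higher with ML-792, averaging 4.87 CPM in ML-792 and 0.72 CPM in DMSO (log2 2.79 ± 0.295 SE, edgeR adjusted p = 0.0014).

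**Figure D4:**
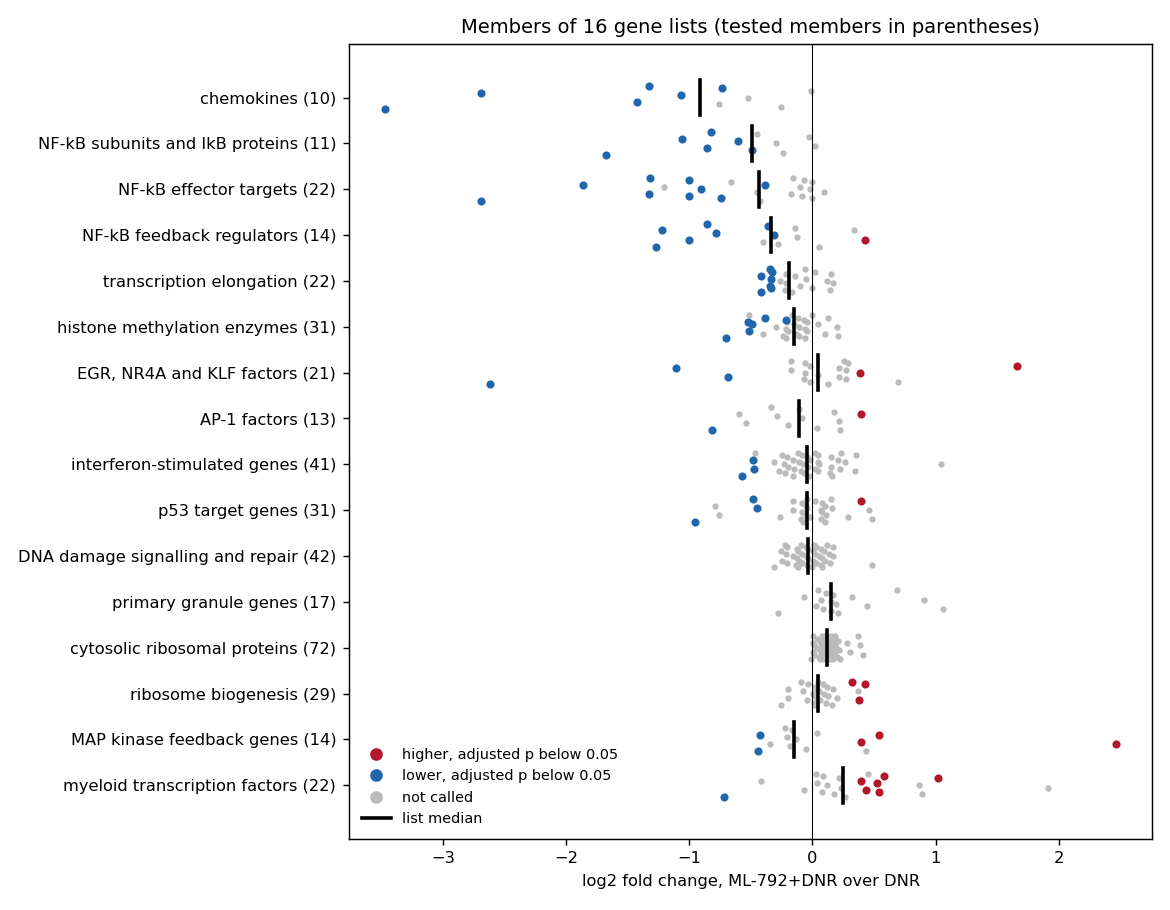
Log2 fold change of ML-792+DNR over DNR for the tested members of selected gene lists, 1 point per gene, with the list median as a black bar and genes called higher in red and lower in blue. The chemokine and NF-kB lists have their medians between −0.92 and −0.34, while the medians of the DNA repair, p53 and interferon lists are all −0.04.

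The effect of ML-792 in the absence of DNR was read from other libraries, ML-792 against DMSO, where 22 genes were called at least 2-fold higher (0.161% of tested genes) and 3 lower (0.0219%). Of the 24 genes called at least 2-fold higher in DNR-treated cells, 8 were also called at least 2-fold higher without DNR, which is 33.3% of the 24 and 36.4% of the 22. They were CA2, MIR17HG, MIR503HG, MIR99AHG, MYC, SERPINB2, SPRY4 and TMEM71. All 24 had a positive fold change without DNR, with a median log2 of 0.84 without DNR and 1.30 with it. The genes were chosen for a fold change of at least 2 with DNR, which raises the second median, so the difference between the medians is not a result. Over all tested genes the median log2 without DNR was −0.0071. MIR17HG had 453, 286 and 338 CPM in ML-792 and 35.5, 44 and 47.4 CPM in DMSO (log2 3.10 ± 0.19 SE, edgeR adjusted p = 1.46e-05), beside log2 2.88 ± 0.19 SE in DNR-treated cells. GATA2 likewise had 100 to 134 CPM in ML-792 and 58.2 to 69.9 CPM in DMSO (log2 0.94 ± 0.10 SE, edgeR adjusted p = 0.0015).

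Among the lower genes, none of the 28 was called at least 2-fold lower by ML-792 without DNR. With 6 of the 28 left out because ML-792 or DMSO libraries held 3 reads or fewer in sum (BCL3, CCL4, CRIP2, CXCL10, GCNT4 and TNFAIP6), none of the other 22 was called at all, and their median log2 fold change was −0.17 without DNR and −1.22 with it. Here too the median with DNR is set by the choice of genes, so the difference between the medians is not a result. Without DNR 17 of the 22 had negative and 5 positive fold changes. FILIP1L missed the threshold there (log2 −0.95 ± 0.21 SE, edgeR adjusted p = 0.0631), and BIRC3 went the other way (log2 0.70 ± 0.18 SE, edgeR adjusted p = 0.134). NFKB2 had 3.70, 5.52 and 5.77 CPM in ML-792 and 4.40, 4.58 and 5.43 CPM in DMSO, and the groups overlapped (log2 0.05 ± 0.15 SE, edgeR adjusted p = 0.96). CXCL8 had 7.62 to 9.94 CPM in ML-792 and 9.48 to 13.9 CPM in DMSO (log2 −0.46 ± 0.23 SE, edgeR adjusted p = 0.577). Many of these genes were near 0 without DNR, so that a fall was not detectable at this depth.

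Whether the effect of ML-792 differs between cells with and without DNR was tested by the interaction of the 2 drugs. In edgeR TNFAIP2 alone was called (0.0073% of tested genes), with a log2 fold change of −1.27 in DNR-treated cells and 0.34 in cells without DNR, an interaction of −1.61 ± 0.17 SE (edgeR adjusted p = 0.0113). Without the replicate block edgeR called no gene and gave TNFAIP2 an adjusted p of 0.845, while DESeq2 with the block called 70 genes. The 3 DNR-treated pairs of TNFAIP2 were all lower with ML-792, at 22.5 to 47.5 CPM against 62.2 to 93.7 CPM, while it had 12.4, 10.5 and 15.4 CPM in ML-792 and 9.20, 8.63 and 12.5 CPM in DMSO. For the other genes the difference did not pass this test, among them NFKB2 (interaction log2 −1.11 ± 0.20 SE, edgeR adjusted p = 0.144), BIRC3 (−1.70 ± 0.24 SE, 0.0637), CA2, carbonic anhydrase 2 (−1.07 ± 0.14 SE, 0.0637), ICAM1 (−1.67 ± 0.47 SE, 0.354), MYC (0.67 ± 0.17 SE, 0.311) and MIR17HG (−0.22 ± 0.25 SE, 0.86). Nor did it pass for IER3 (interaction log2 −2.46 ± 0.35 SE, edgeR adjusted p = 0.0637). Such a result does not show that the effects are alike, and 1077 genes had an unadjusted interaction p below 0.05.

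**Figure D5:**
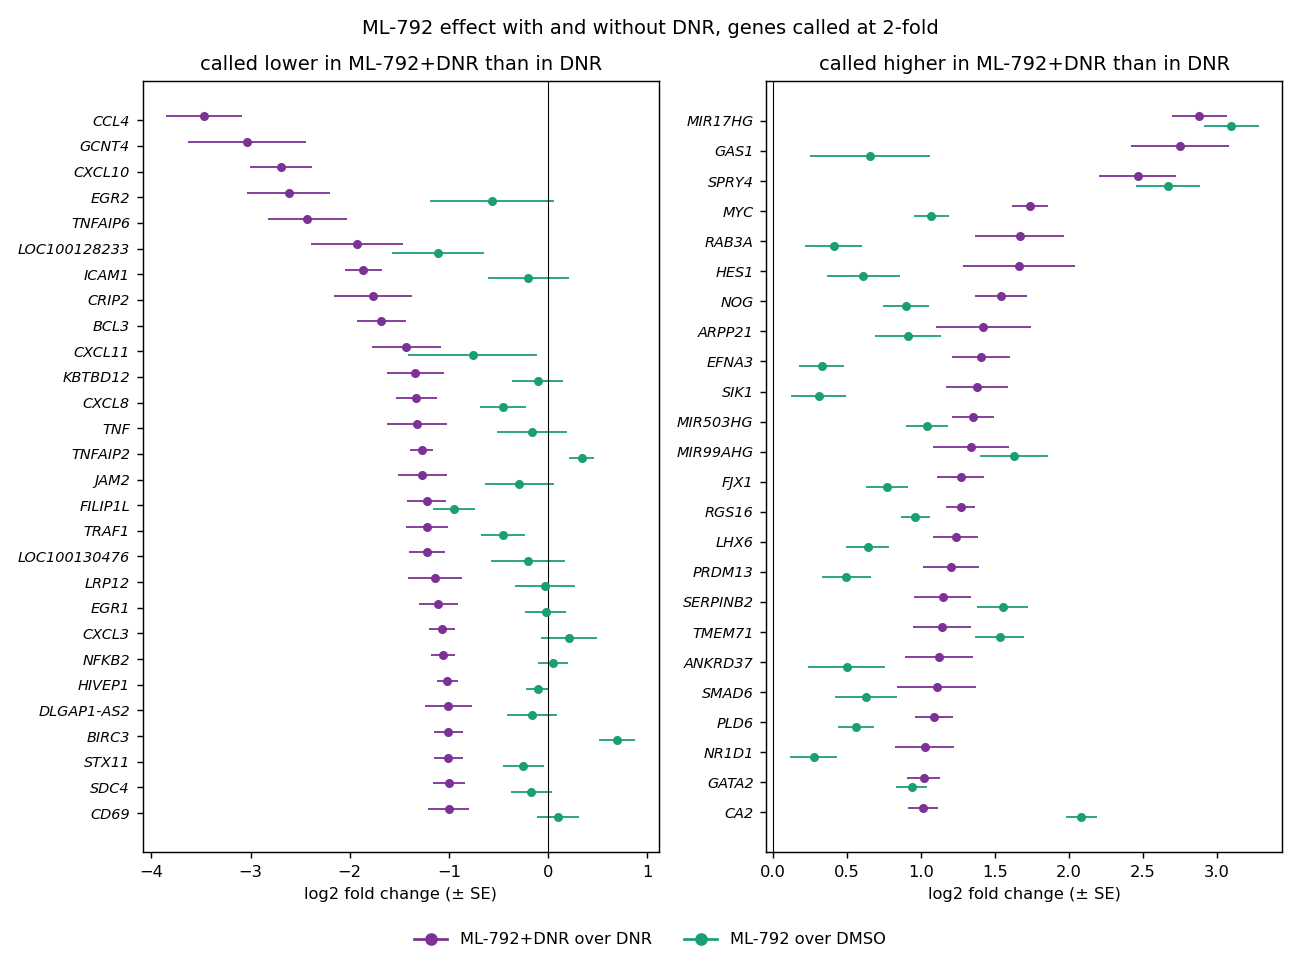
Log2 fold changes with their SE of the 28 genes called at least 2-fold lower (left) and the 24 called at least 2-fold higher (right), for ML-792+DNR over DNR in purple and for ML-792 over DMSO in green; green points are left out for 6 genes with 3 reads or fewer in a group. In the right panel every green point is above 0, with a median of 0.84, and in the left panel green points scatter about a median of −0.17.

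The levels can also be placed against those of DMSO cells. DNR against DMSO shares the DNR libraries with the main comparison, so the values are given side by side only. A gene is more readily called lower where its DNR libraries are high, and higher where they are low. The counts of genes below are therefore favoured by the choice of genes, no share over all tested genes is given, and they support no conclusion. All 28 lower genes had a higher mean in DNR than in DMSO, and for 23 of them the ML-792+DNR mean lay between the DNR and DMSO means. EGR1 averaged 50.8 ± 16 CPM in ML-792+DNR, 109 ± 17.9 CPM in DNR, 18.3 ± 2.05 CPM in ML-792 and 19.0 ± 5.28 CPM in DMSO (SD, n = 3 each). ICAM1 averaged 1.95 ± 0.997 CPM, 7 ± 3.2 CPM, 0.200 ± 0.034 CPM and 0.234 ± 0.0897 CPM in the same order, so that both genes stayed above their DMSO level in all 3 ML-792+DNR libraries. Of the 24 higher genes, 20 had a lower mean in DNR than in DMSO (the other 4 were CA2, ANKRD37, RGS16 and MIR503HG), and for 10 of the 24 the ML-792+DNR mean lay between the DNR and DMSO means. MYC was one of these, at 393 ± 172 CPM in ML-792+DNR, 115 ± 32.1 CPM in DNR, 1283 ± 231 CPM in ML-792 and 610 ± 105 CPM in DMSO. MIR17HG was not, since its 219 ± 38.7 CPM in ML-792+DNR exceeded both the 29.6 ± 3.87 CPM in DNR and the 42.3 ± 6.12 CPM in DMSO.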

How the data were processed

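RNA of HL-60 cells was made into stranded polyadenylated libraries and sequenced as single reads. The authors aligned the reads to the hg19 build (GRCh37) using TopHat2 (2.1.1, with Bowtie2 2.3.5.1). Raw counts per gene are from HTSeq (0.11.1), and this deposited count table was used as it stands. Cufflinks 2.2.1, Picard and DESeq2 are further tools in the submitters' processing notes. Neither the strand setting of the counting nor the annotation version is given in the sources used here, which leaves overlapping genes, antisense genes and near-identical copies such as CCL4 uncertain. A deposited table of normalized values and the authors' own comparison table, which holds DESeq2 fold changes and p-values, were not used.

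The 5 counter lines were left out, and 13696 of 42157 genes passed filterByExpr (minimum count 10, minimum total count 15). A quasi-likelihood model of edgeR 4.0.16, with TMM normalization, was fitted to all 12 libraries in R 4.3.3, with a group term and the replicate number as a block (6 residual degrees of freedom). The contrasts were ML-792+DNR vs DNR, ML-792 vs DMSO, DNR vs DMSO and the interaction. CPM use TMM-scaled library sizes, SE is the log2 fold change divided by the square root of F, and p-values were adjusted over all tested genes. P-values rest on the spread between libraries that is left after the group and replicate terms. It was estimated from all 12 libraries, with information shared across genes. Differences between the 3 experiments that all groups share are removed by the block. Exact permutation of 3 libraries against 3 reaches no p under 0.1 and was left out.

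Replicate numbers pair the ML-792+DNR and DNR samples: across genes, deviations from group means of same-numbered libraries correlated at 0.728, 0.784 and 0.589, and those of differently numbered ones at −0.659 to 0.0301. Deviations sum to 0 within a group, so the negative values are partly forced. Between the other groups the range was 0.0452 to 0.75 for like numbers and −0.603 to 0.216 for unlike ones. DNR replicate 1 reached only 0.0452 with ML-792 replicate 1 and 0.0885 with DMSO replicate 1, so the block was weakly shared there. The members and the 40 gene lists were chosen with earlier results of these data known. Named genes were the 15 largest rises and 15 largest falls among 2-fold calls of at least 1 CPM that moved alike in 3 pairs, 8 genes the study singled out, and from each list up to 4 called members of largest change or, with none, the 2 most abundant. Other genes, such as RELA, EGR3 and the uncalled members of lists, were named after their values were seen. Alternatives were no block, the 6 libraries of the comparison only, other scalings and filters, DESeq2 1.42.0, limma 3.58.1 voom, a fold of 1.5 and leaving out each library or replicate. Gene coordinates come from GENCODE on GRCh37, and promoters and microRNAs from RefSeq on GRCh38.p14, where 10205 of 13696 tested genes matched a promoter by symbol. Scripts were tested on simulated data.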

Additional observations from a re-analysis of the deposited data

Results flagged for a closer look

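TNFAIP2 was the only gene whose response to ML-792 differed between cells with and without DNR by the interaction test of edgeR, with an interaction of −1.61 on the log2 scale (adjusted p = 0.0113). It was lower with ML-792 in 3 of 3 DNR-treated pairs and higher in 3 of 3 pairs without DNR. limma voom gave an adjusted p of 0.0177 and DESeq2 2.17e-15, while without the replicate block it was 0.845.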

How the results depend on the processing

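All 52 genes called at least 2-fold kept their direction under every alternative in which they were tested, and no called gene among those named reversed. Some uncalled genes near 0 changed sign with a library left out, such as HIST1H2BK (log2 −0.33 to 0.25) and CD79A (−0.66 to 0.03). The counts of calls moved more. Without the replicate block, 13 genes were at least 2-fold higher and 14 lower, 35 higher and 67 lower with no fold minimum, and 27 of the 52 calls remained. With the block and the 6 libraries of the comparison only, 43 genes were 2-fold higher, and 1719 were higher and 1670 lower with no fold minimum. Requiring a mean of at least 1 CPM gave 17 2-fold lower genes and 489 lower ones. DESeq2 gave 15 2-fold lower genes, 385 higher and 605 lower; 16 of the 52 genes had no adjusted p there, 35 were under 0.05 and CXCL10 was at 0.209. A fold of at least 1.5 gave 89 higher and 66 lower genes. Leaving out 1 library or 1 replicate number at a time gave 4 to 29 2-fold higher, 1 to 20 2-fold lower, 4 to 170 higher and 1 to 215 lower genes. The lowest counts came without replicate 3, where 5 calls remained, and the cause was not tested. The interaction called 0 genes without the block (edgeR; TNFAIP2 had an unadjusted p of 0.00123) and 70 with DESeq2. Library scaling and limma voom kept these 4 counts over all genes within 1.5 times, but not all counts in gene lists: 5 replication genes were lower with library size only, against 2 in the main result, and 4 death receptor genes with library size only or limma voom, against 2. Depth limits the 9 genes under 1 CPM in both groups, and the genes near 0 without DNR.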
